A study of Homo sapiens with 12 samples.

Results

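HepG2, a line of human hepatoma cells that keeps much of the hepatocyte's secretory programme, was grown in 20 mM glucose for 48 h. HGV cells were then treated with 1 mM VPA, valproic acid, for another 12 h, HG cells were not, and poly(A) RNA was sequenced. Whether HG cells were kept for those 12 h is not stated. If they were not, VPA and 12 h more of culture cannot be told apart. The comparison of HGV with HG, at 3 libraries a group, asks what VPA did to the genes of cells held in high glucose. It was read here over the 16188 of 16389 deposited genes that averaged at least 10 counts over the 6 libraries, with most room given to the genes that were lower in HGV and to those well expressed in HG. Cells in 5.5 mM glucose without (LG) or with (LGV) the same dose of VPA gave 6 further libraries, used below only to set a change in high glucose beside the change at the lower level. At the edge of the rule, BHLHE41 came in at a mean of 10.0 counts, with 11 counts in HG and 49 in HGV summed over the libraries, and IL2RB stayed out at 9.83, with 7 and 52. HepG2 is 1 tumour line, so all 12 libraries share its genome, and the labels do not say whether the 3 libraries of a group came from separate cultures: p-values then measure the spread between these libraries, which may be technical. Libraries are named by group and number, HG1 to HG3 and HGV1 to HGV3.

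VPA is a branched short-chain fatty acid given against seizures and as a mood stabiliser. It inhibits histone deacetylases, the enzymes that take acetyl groups off histone tails, and chromatin becomes more acetylated under it. Hepatocytes make most of the proteins of blood plasma, among them albumin, clotting factors, complement and apolipoproteins, and a network of liver transcription factors (HNF4, FOXA and C/EBP proteins with nuclear receptors) keeps those genes active.

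Libraries held 31835380 to 36572517 counts in HG and 29798442 to 40218012 in HGV. All 8 hepatocyte markers (ALB, AFP, TTR, TF, APOA1, APOB, SERPINA1 and HNF4A) were present and summed to 53990 to 61510 counts per 1000000 counts of a library (CPM) in HG and 47790 to 62900 in HGV. Of 12 markers of endothelial, stellate and immune cells of liver, 3 (CDH5, COL1A1 and PDGFRB) were in the tested table, at a summed 19.8 to 30.9 CPM in HG and 28.2 to 35.6 in HGV. PDGFRB held most of that sum and was not called (log2 fold change 0.26), while the scarce CDH5 and COL1A1 rose by 1.65 and 2.52, from means of 0.423 and 0.350 CPM in HG to 1.34 and 2.03 CPM in HGV. Their part in the falls of liver genes was not tested. The second HGV library stood apart from the other 2, and its share of ribosomal RNA was the highest: RNA28S5 counted 5744, 5352 and 7164 CPM in HG and 5497, 12717 and 3650.3 CPM in HGV. Leaving that library out gave 3432 genes lower and 4361 higher, against 3272 and 4184 with it.

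Falls under VPA were commoner among abundant transcripts and rises among scarce ones. By edgeR's quasi-likelihood test at an FDR of 0.05 or less, the rule behind every "fell" and "rose" below, 3272 genes fell, 20.2% of those tested, and 4184 rose, 25.8%. Among the 1950 genes with a mean of 100 CPM or more in HG, 763 fell, 39.1%, and 198 rose, 10.2%. Their median log2 fold change was -0.20, against 0.02 over all tested genes, and 100 of the falls but 5 of the rises reached 2-fold. Between 10 and 100 CPM, 1827 of 7037 genes fell and 1485 rose. Between 1 and 10 CPM the order turned, with 584 of 4087 lower and 1192 higher, and under 1 CPM 98 of 3114 fell and 1309 rose.

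**Figure D1:**
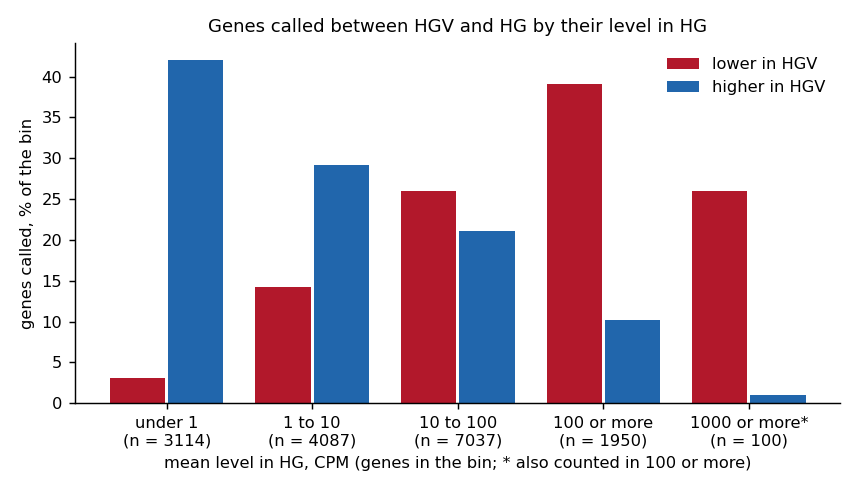
Share of tested genes called lower (red) and higher (blue) in HGV, as percent of the genes in each bin (vertical axis), by their mean level in HG in CPM (horizontal axis). The red bars grow from 3.15% under 1 CPM to 39.1% at 100 CPM or more, and the blue bars shrink from 42.0% to 10.2%. In the last pair of bars, the 100 genes at 1000 CPM or more, which are also part of the bin before it, 26 fell and 1 rose, so the share of falls did not keep growing with level.

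Bins set on HG share its libraries with the contrast, so the genes were also binned by LG, which the contrast did not use: of 2041 genes at 100 CPM or more in LG, 766 fell and 223 rose, and of 3005 under 1 CPM 133 fell and 1210 rose. For 850 genes the mean count in HG alone was under 10, so that they passed through HGV; none of them fell and 719 rose, a direction the filter favoured. All values rest on TMM scaling, which assumes that most genes do not move. With library sizes alone the median of all tested genes shifted from 0.02 to 0.15, 2424 genes fell and 5182 rose, so that 68.1% of calls were higher in place of 56.1%. Among genes at 100 CPM or more, 578 then fell and 333 rose, which keeps the order. In bulk RNA a smaller number of cells expressing a gene and less RNA of that gene per cell cannot be told apart.

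The falls were wide and mostly shallow. The median log2 fold change of the 3272 genes was -0.65, a ratio of 0.638, and 737 of them fell at least 2-fold. Together these genes took 31.6 to 32.1% of all counts in HG and 22.2 to 23.0% in HGV. The 763 lowered genes of 100 CPM or more took 23.8 to 24.1% of counts in HG and 16.9 to 17.5% in HGV, whereas the 4184 raised genes went from 8.41 to 8.69% to 14.6 to 14.8%. Between the groups no library overlapped in 3982 genes lower in HGV, 24.6% of those tested, and in 4854 higher, 30.0%.

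None of the 20 genes with the most counts in HG rose, and 5 fell: C3, FGA, A2M, IGF2 and ITIH2. At 1000 CPM or more in HG 26.0% of genes fell and 1.0% rose, so these counts were near the shares of abundant genes. Over all tested genes 20.2% fell and 25.8% rose. Counts grow with transcript length, so this order is not one of molecules. C3, the central component of complement, on chromosome 19 (GRCh37 19:6677715-6730573), counted 10133, 10452 and 9582 CPM in HG and 7344, 6835 and 6031 CPM in HGV. All HGV libraries lay under all HG libraries (log2 fold change -0.58 ± 0.13 SE, adjusted p = 0.0023). ITIH2, a heavy chain carried by the inter-alpha-trypsin inhibitor, counted 5099.9, 4130.2 and 4468 CPM in HG and 2712, 2888 and 2717 CPM in HGV (log2 fold change -0.72 ± 0.12 SE, adjusted p = 0.00036). The protease inhibitor A2M counted 11426, 11192 and 10861 CPM in HG and 8610.1, 8725 and 8341 CPM in HGV. Its fall was small (log2 fold change -0.38 ± 0.12 SE, adjusted p = 0.017), and its call was lost without HG2 or HG3 (adjusted p up to 0.0597). IGF2, the fetal growth factor that this line makes in quantity, counted 7749, 8864 and 7632 CPM in HG and 6435, 4726 and 6395 CPM in HGV. It fell by 0.47 on the log2 scale (adjusted p = 0.019), a call lost without HG2 (adjusted p 0.0882). An antisense transcript covers 8.9% of the exon bases of A2M, and whether the counting used strand is not stated.

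Other leading products of the liver cell gave no call. ALB, the main protein of plasma, counted 30435, 24984 and 27989 CPM in HG and 23589, 23607 and 29968 CPM in HGV. The groups overlapped (log2 fold change -0.11 ± 0.15 SE, adjusted p = 0.57). The third HGV library held the highest AFP (5758, 4274 and 5021 CPM in HG and 5168, 3772 and 8007 CPM in HGV), whose log2 fold change of 0.17 had an adjusted p of 0.56. TF, AHSG, SERPINA1, APOB and the fibronectin gene FN1 had log2 fold changes from -0.35 to -0.13, with adjusted p from 0.088 to 0.51. The mitochondrial transcripts MT-CO1, MT-CO2, MT-CO3 and MT-ND4 lay between -0.15 and -0.08, also with no call. The mitochondrial ribosomal RNA MT-RNR2 counted 22802, 23324 and 23226 CPM in HG and 27189.5, 34944 and 25526 CPM in HGV, with the highest value in the library that stood apart (log2 fold change 0.34 ± 0.15 SE, adjusted p = 0.08).

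Plasma proteins were lowered across their classes. Of 100 tested genes of complement, coagulation, carriers, the acute phase and apolipoproteins, 52 fell and 11 rose, with a median log2 fold change of -0.40. The share that fell, 52.0%, stands beside 20.2% over all genes and 39.1% at 100 CPM or more. Counts of the 100 genes made up 11.9 to 12.8% of a library in HG and 10.1 to 11.8% in HGV, so the ranges did not overlap (exact permutation test on summed CPM, two-sided p = 0.1, the smallest that 3 against 3 allow). The lower count was 40 without HG3, 44 without HGV1 or HGV3, 47 without HG1 and 50 without HG2 or HGV2. The higher count was 9 without HG2 and 10 without any other library.

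**Figure D2:**
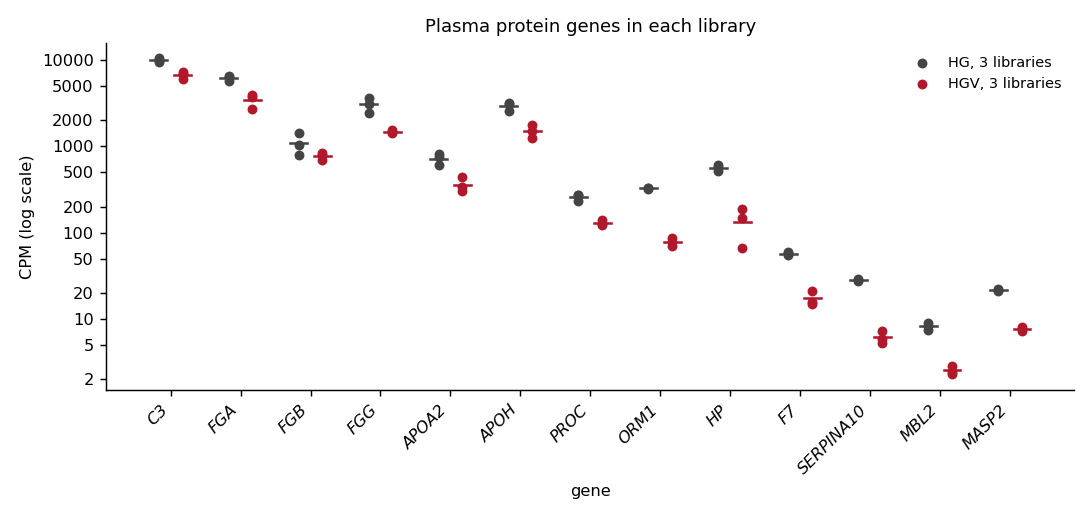
CPM on a log axis (vertical) for 13 plasma protein genes (horizontal) in each HG library (grey) and HGV library (red), with a bar at the mean of 3. All 13 genes were called lower; FGB is the 1 gene whose groups overlap.

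Complement is a cascade of plasma proteases and pore proteins that marks and lyses microbes. Of 26 tested members 12 fell, 46.15%, and 2 rose, 7.69%, with a median log2 fold change of -0.33. Over all tested genes 20.2% fell and 25.8% rose, and at 100 CPM or more 39.1% and 10.2%. The lectin pathway starts with MBL2, a lectin that binds sugars on microbes, and MASP2, the protease that travels with it. MASP2 (GRCh37 1:11082066-11107296) counted 21.0, 21.6 and 22.3 CPM in HG and 7.36, 7.78 and 8.12 CPM in HGV. No library of one group came near the other (log2 fold change -1.48 ± 0.12 SE, adjusted p = 1e-06). MBL2 counted 8.98, 7.51 and 8.42 CPM in HG and 2.89, 2.31 and 2.46 CPM in HGV, a low level that fell in every pair of libraries (log2 fold change -1.70 ± 0.17 SE, adjusted p = 4.5e-06). C2, C4A and C4B, which with MASP2 or C1S build the C3 convertase, fell by 0.57, 0.69 and 0.68 on the log2 scale. C4A and C4B are near-identical copies, so reads could be split between them and their values are not separate evidence.

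In the alternative pathway CFB, which supplies the catalytic part of its C3 convertase, counted 44, 48.2 and 52.7 CPM in HG and 26.4, 27.5 and 25.2 CPM in HGV, and the HGV values formed a tight group below (log2 fold change -0.87 ± 0.11 SE, adjusted p = 4e-05). Its activating protease CFD went the other way: it counted 3.38, 3.37 and 3.56 CPM in HG and 7.04, 9.22 and 9.52 CPM in HGV (log2 fold change 1.32 ± 0.17 SE, adjusted p = 3.8e-05), while the opposite-strand gene MED16 covers 14% of its exon bases. In the terminal pore C8A and C8B fell by 1.01 and 0.52, while C5, C6, C7 and C8G, at log2 fold changes from -0.41 to 0.01, were not called. Among regulators C4BPB, the beta chain of the C4b-binding protein, counted 72.1, 67.8 and 69.3 CPM in HG and 28.1, 27.4 and 26.6 CPM in HGV. Its groups lay far apart (log2 fold change -1.35 ± 0.10 SE, adjusted p = 4.7e-07), and the alpha chain C4BPA moved less (log2 fold change -0.34 ± 0.12 SE, adjusted p = 0.032), a call lost without HG2, HG3, HGV1 or HGV3 (adjusted p up to 0.13). VTN, vitronectin, fell by 0.57. SERPING1, CD46, CD55, CD59 and CLU, which restrain the cascade, had log2 fold changes from -0.05 to 0.15 and no call. C1R rose by 0.56 on the log2 scale at a low level, and lost its call without HG1, HG2 or HGV2 (adjusted p up to 0.061).

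Coagulation turns fibrinogen into fibrin through a chain of liver-made proteases, many of which carry vitamin K-dependent carboxyl groups. Of 32 tested members 16 fell and 5 rose, with a median of -0.32. The lower count was 11 without HG1 or HG3, 12 without HGV1, 13 without HGV2 or HGV3 and 17 without HG2. All 3 chains of fibrinogen, neighbours on chromosome 4 (GRCh37 4:155484163-155493959 for FGB, 4:155504278-155511894 for FGA and 4:155525286-155534119 for FGG), fell. FGG counted 3677, 2463 and 3134 CPM in HG and 1539, 1469.7 and 1424 CPM in HGV. Every HGV library was below every HG library (log2 fold change -1.06 ± 0.14 SE, adjusted p = 6.8e-05). FGA counted 6523, 5737 and 6393 CPM in HG and 3927, 3733 and 2739 CPM in HGV (log2 fold change -0.84 ± 0.15 SE, adjusted p = 0.0005). FGB counted 1429.5, 804 and 1042 CPM in HG and 829.8, 690.2 and 800.0 CPM in HGV, and here the groups overlapped (log2 fold change -0.50 ± 0.18 SE, adjusted p = 0.035). The FGB call was lost without HG1, HG3, HGV1, HGV2 or HGV3 (adjusted p up to 0.138).

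The 250 bases before the RefSeq start of each chain (GRCh38.p14, on the strand of the gene) are shown since the chains fell together and are read from separate starts. FGA is read from chr4:154590743-154590992 on the minus strand, FGB from chr4:154562761-154563010 on the plus strand and FGG from chr4:154612657-154612906 on the minus strand. Capitals mark the core letters of a C/EBP site (TTGCAA) and of a CCAAT box (CCAAT), each on either strand, with no overlap between matches.
FGA: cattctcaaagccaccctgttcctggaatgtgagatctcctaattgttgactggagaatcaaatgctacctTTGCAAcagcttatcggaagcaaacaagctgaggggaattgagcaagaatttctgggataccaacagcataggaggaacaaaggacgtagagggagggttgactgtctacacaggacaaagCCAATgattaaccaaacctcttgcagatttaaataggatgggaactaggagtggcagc
FGB: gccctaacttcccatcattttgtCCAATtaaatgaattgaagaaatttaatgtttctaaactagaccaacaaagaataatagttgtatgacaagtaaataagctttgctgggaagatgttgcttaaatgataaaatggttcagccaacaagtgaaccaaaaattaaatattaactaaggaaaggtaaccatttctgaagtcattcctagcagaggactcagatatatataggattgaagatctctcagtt
FGG: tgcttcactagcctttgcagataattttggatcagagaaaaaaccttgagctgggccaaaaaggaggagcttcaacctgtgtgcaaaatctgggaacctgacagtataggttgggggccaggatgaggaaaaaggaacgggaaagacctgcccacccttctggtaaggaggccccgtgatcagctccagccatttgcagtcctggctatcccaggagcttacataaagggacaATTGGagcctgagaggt
The CCAAT letters lay 58 to 54 bases before the start of FGA, 227 to 223 before that of FGB and, on the other strand, 17 to 13 before that of FGG. They occur in 32% of the 35116 RefSeq promoters cut to this length. The C/EBP letters lay 179 to 174 bases before the start of FGA, were not in the other windows and occur in 4.73% of those promoters. The search also took in the C/EBP palindrome (TTGCGCAA, in 0.131% of those promoters), an HNF4 site (CAAAGTCCA, 0.325%), the TATA box on the strand of the gene (TATAAA, 6.8%), the GC box (GGGCGG, 42.6%), an ETS site (CCGGAAG, 8.52%), the E-box (CACGTG, 6.34%) and the cyclic AMP element (TGACGTCA, 1.65%), with no match in the 3 windows. A match is a run of letters and not a bound site. Letters of other liver transcription factors were not searched, so the windows may hold them unmarked. A comparison of motif shares between lowered and other genes was void, since 71.8% of tested genes could be matched to a promoter.

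Among clotting factors 4 of 12 fell, 33.3%, and 2 rose, 16.7%, beside 20.2% and 25.8% over all tested genes. F7, the protease that starts the extrinsic branch with tissue factor, counted 57.6, 59.6 and 54.6 CPM in HG and 14.9, 15.8 and 21.3 CPM in HGV, with a wide gap between the groups (log2 fold change -1.72 ± 0.14 SE, adjusted p = 9.9e-07). F11 and prothrombin, F2, fell by 1.01 and 0.47. KNG1 fell by 0.45 with overlapping groups, and lost its call without HG1, HG3, HGV1 or HGV2 (adjusted p up to 0.154). KLKB1, plasma prekallikrein, rose from a mean of 1.15 ± 0.229 CPM in HG to 3.40 ± 0.673 in HGV (SD, n = 3) (log2 fold change 1.57 ± 0.23 SE, adjusted p = 0.00015). Tissue factor itself, F3, counted 5.54, 2.85 and 3.53 CPM in HG and 7.29, 5.30 and 6.63 CPM in HGV, and its rise overlapped (log2 fold change 0.69 ± 0.23 SE, adjusted p = 0.028), a call lost without HG2, HG3, HGV1 or HGV3 (adjusted p up to 0.112).

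The natural anticoagulants were lowered in 6 of 8 tested genes, with none higher and a median of -0.64. SERPINA10, the inhibitor of factor Xa that acts with protein Z, counted 29.3, 27.4 and 28.2 CPM in HG and 7.23, 5.32 and 5.81 CPM in HGV. It had the lowest log2 fold change of the coagulation list (log2 fold change -2.21 ± 0.14 SE, adjusted p = 1.5e-07). PROC, protein C, counted 231, 273 and 276 CPM in HG and 124, 141 and 125 CPM in HGV (log2 fold change -1.0 ± 0.11 SE, adjusted p = 1.1e-05), and its HGV values were close to 50% of those in HG. PROZ, protein Z, fell by 1.49, heparin cofactor II, SERPIND1, by 0.68 and antithrombin, SERPINC1, by 0.59. The fall of PROS1, protein S, by 0.35 was lost without HG1, HG3, HGV2 or HGV3 (adjusted p up to 0.0889). Both vitamin K enzymes rose: GGCX, the carboxylase itself, counted 163, 173 and 174 CPM in HG and 327, 321 and 286 CPM in HGV (log2 fold change 0.87 ± 0.10 SE, adjusted p = 1.8e-05), and the reductase VKORC1 rose by 0.53 (adjusted p = 0.0018). In fibrinolysis the plasmin inhibitor SERPINF2 counted 967, 1059 and 1100.2 CPM in HG and 548, 669.8 and 582 CPM in HGV (log2 fold change -0.80 ± 0.11 SE, adjusted p = 0.00011).

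Carrier proteins of plasma fell in 10 of 21 tested genes, 47.6%, and rose in 3, 14.3%, beside 20.2% and 25.8% over all tested genes. Their median of -0.39 became -0.21 without HG1. APOH, a lipid-binding glycoprotein, counted 3071, 2595 and 3215 CPM in HG and 1268, 1793 and 1524 CPM in HGV (log2 fold change -0.95 ± 0.14 SE, adjusted p = 0.00016). Ceruloplasmin, CP, the copper carrier, counted 317, 250.03 and 227 CPM in HG and 127, 116 and 168 CPM in HGV (log2 fold change -0.95 ± 0.16 SE, adjusted p = 0.0003), and an opposite-strand gene, HPS3, covers 20.1% of its exon bases. The heavy chains ITIH1, ITIH2 and ITIH3 fell by 0.80, 0.72 and 0.81. RBP4, which carries retinol, fell by 0.52 and SERPINA7, which carries thyroxine, by 0.60, but TTR, the partner of RBP4 and another thyroxine carrier, rose: it counted 129.7, 143 and 158 CPM in HG and 163, 209.9 and 239 CPM in HGV (log2 fold change 0.51 ± 0.14 SE, adjusted p = 0.0091). SERPINA6, which binds cortisol, and SHBG, which binds sex steroids, rose by 0.41 and 0.62. AGT, the precursor of angiotensin, fell by 0.46 and lost its call without HG3 or HGV3 (adjusted p up to 0.066). The fall of AMBP by 0.39 was lost without HG2, HG3 or HGV1 (adjusted p up to 0.0918).

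The acute phase proteins, which the liver secretes in inflammation, had the lowest median of the plasma lists. Of 10 tested genes 7 fell, 70.0%, and 1 rose, 10.0%, beside 20.2% and 25.8% over all tested genes. The median log2 fold change was -1.06. HP, haptoglobin (GRCh37 16:72088404-72094954), which binds free haemoglobin, counted 521, 571 and 614 CPM in HG and 149, 188 and 66.9 CPM in HGV. All HGV values were below all HG values, though the third HGV library had less than 50% of the level of the other 2 (log2 fold change -2.08 ± 0.27 SE, adjusted p = 5.7e-05). ORM1 and ORM2 encode orosomucoid from near-identical genes. ORM1 counted 319.7, 331 and 333 CPM in HG and 78.6, 86.3 and 70.4 CPM in HGV (log2 fold change -2.06 ± 0.11 SE, adjusted p = 3.5e-08). The second copy counted 187, 212 and 217 CPM in HG and 46.8, 54.4 and 39.7 CPM in HGV (log2 fold change -2.13 ± 0.13 SE, adjusted p = 9.8e-08), and the reads of the pair may be exchanged between them. FGL1, a fibrinogen-like hepatokine, counted 748, 589 and 694 CPM in HG and 313, 334 and 238 CPM in HGV (log2 fold change -1.20 ± 0.14 SE, adjusted p = 2.2e-05).

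SERPINA3, antichymotrypsin, fell from a mean of 47.6 ± 6.76 CPM in HG to 15.2 ± 8.88 in HGV (SD, n = 3), with the values in HGV spread over 24.4, 14.6 and 6.66 CPM (log2 fold change -1.65 ± 0.32 SE, adjusted p = 0.0012), and 31.7% of its exon bases also belong to a noncoding gene on the same strand. SAA4 fell at about 1 CPM, a call lost without HG2, HG3, HGV1 or HGV3 (adjusted p up to 0.118). HAMP, hepcidin, the hormone that limits iron uptake, was the member that rose, on 5.34, 8.84 and 7.41 CPM in HG and 18.5, 20.1 and 10.9 CPM in HGV (log2 fold change 1.20 ± 0.23 SE, adjusted p = 0.0011).

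Apolipoproteins, the protein coats of lipoprotein particles, fell in 7 of 11 tested genes, 63.6%, and rose in none (median -0.55). Over all tested genes 20.2% fell and 25.8% rose. APOA2, of high-density lipoprotein, counted 606, 751 and 816 CPM in HG and 303, 336 and 441 CPM in HGV (log2 fold change -1.01 ± 0.15 SE, adjusted p = 0.00017). APOC1 counted 243, 289 and 304 CPM in HG and 108, 149.5 and 135 CPM in HGV, so that the HGV libraries lay near 50% of HG (log2 fold change -1.09 ± 0.13 SE, adjusted p = 3.2e-05). APOA5, APOL1 and APOC3 fell by 1.02, 0.99 and 0.70. APOE fell by 0.33 and APOC2 by 0.55, calls that were lost without HG2, HG3, HGV1 or HGV3 (adjusted p up to 0.173) for APOE and without HG1, HG3 or HGV3 (adjusted p up to 0.119) for APOC2. APOB, the backbone of very low-density lipoprotein, counted 8674, 6727 and 6444 CPM in HG and 7298, 4071 and 7832 CPM in HGV, with the library that stood apart lowest (log2 fold change -0.19 ± 0.21 SE, adjusted p = 0.51). Among handling genes ABCA1, which loads cholesterol onto particles, and LCAT, which esterifies it, fell by 0.95 and 0.75, and the phospholipid transfer protein PLTP rose by 1.29 (adjusted p = 3.8e-06).

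Factors that drive hepatocyte genes fell in 23 of 42 tested, 54.8%, and rose in 5, 11.9%, with a median of -0.36. Over all tested genes the shares were 20.2% and 25.8%, and at 100 CPM or more 39.1% and 10.2%. The count of falls was 17 without HG2 or HGV1, 18 without HG3, 21 without HGV3, 23 without HGV2 and 25 without HG1. The count of rises was 2 without HG2 or HG3 and 3 without HGV1 or HGV3. Among lineage factors ATF5, a leucine zipper factor of liver and of stress responses, counted 31.4, 33.2 and 32.1 CPM in HG and 6.15, 7.58 and 6.41 CPM in HGV (log2 fold change -2.26 ± 0.13 SE, adjusted p = 6.4e-08). The opposite-strand gene NUP62 covers 19.5% of its exon bases. CEBPD, which drives acute phase genes, counted 23.9, 35.2 and 36.1 CPM in HG and 6.12, 9.91 and 5.75 CPM in HGV (log2 fold change -2.12 ± 0.22 SE, adjusted p = 7e-06), and CEBPA fell by 0.63 at a low level, and lost its call without HG2, HG3 or HGV1 (adjusted p up to 0.114). CEBPB was not called (log2 fold change -0.05).

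HNF4A, a nuclear receptor that drives much of the hepatocyte programme, counted 423, 418 and 413 CPM in HG and 296, 311 and 302 CPM in HGV. Its fall was small and tight (log2 fold change -0.46 ± 0.09 SE, adjusted p = 0.0014). FOXA1, which opens liver enhancers, counted 97.6, 97.1 and 104 CPM in HG and 51.3, 55.3 and 48.2 CPM in HGV (log2 fold change -0.95 ± 0.10 SE, adjusted p = 9.1e-06), whereas FOXA2 (log2 fold change -0.24) gave no call and FOXA3 fell by 0.37 and lost its call without HG2, HG3, HGV1 or HGV3 (adjusted p up to 0.173). XBP1, which serves secretion as well as lipid genes, fell by 0.88 and TEF, a clock output factor, by 1.42. HHEX, TBX3 and HNF4G fell by 0.40, 0.41 and 0.74, of which HHEX lost its call without HG3 or HGV1 (adjusted p up to 0.0634). GATA6, CREB3L3 and ONECUT2 rose by 0.71, 0.46 and 0.49. The ONECUT2 call was lost without HG1, HG2, HG3, HGV1 or HGV3 (adjusted p up to 0.175) and that of CREB3L3 without HG2, HG3 or HGV3 (adjusted p up to 0.0673), while ONECUT1 fell by 0.67 and was lost without HG1, HG2, HGV1 or HGV2 (adjusted p up to 0.0755).

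Of 19 nuclear receptors 9 fell and 2 rose. NR1H4, the bile acid receptor FXR, counted 77.0, 62.6 and 66.8 CPM in HG and 18.1, 18.9 and 22.4 CPM in HGV. It had the lowest fold change among receptors (log2 fold change -1.79 ± 0.13 SE, adjusted p = 3.1e-07). NR2F6, NR2F1, NR1H2 and NR1H3, of which the NR1H genes encode oxysterol receptors, fell by 1.11, 0.72, 0.91 and 0.60. PPARG and THRB fell by 0.58 and 0.64. PPARD rose from a mean of 29.6 ± 2.52 CPM in HG to 63.8 ± 3.52 in HGV (SD, n = 3) (log2 fold change 1.11 ± 0.11 SE, adjusted p = 5.1e-06), and PPARA, which drives fatty acid oxidation, rose by 0.41 and lost its call without HG2, HG3 or HGV1 (adjusted p up to 0.0944).

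**Figure D3:**
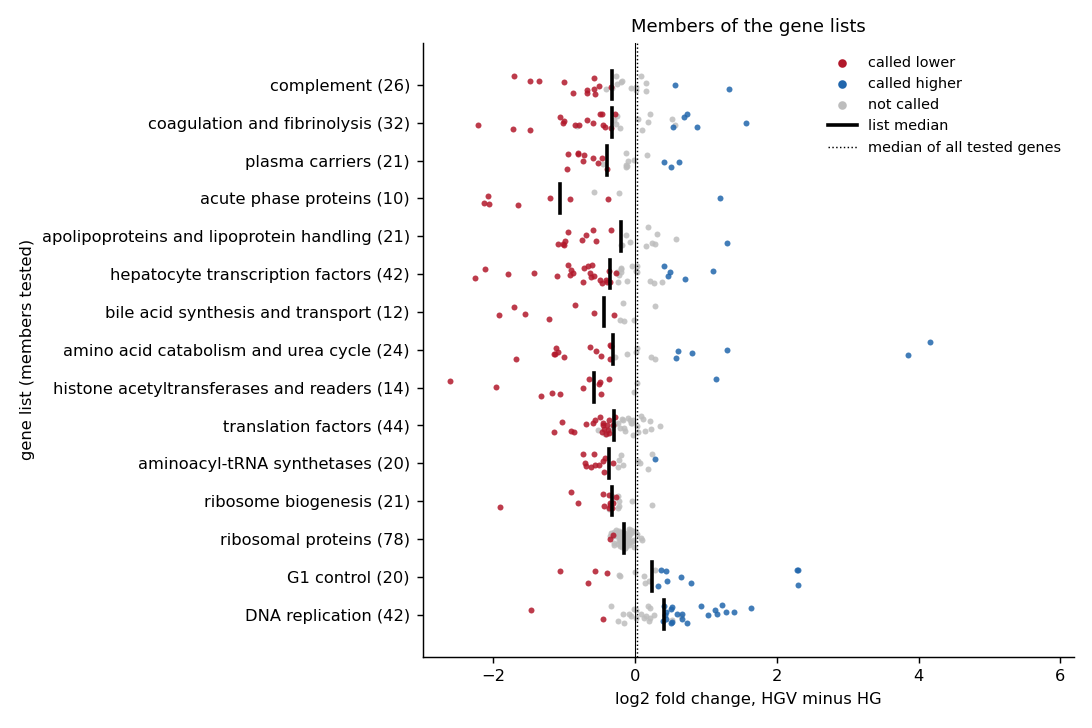
Log2 fold change, HGV minus HG (horizontal axis), of every tested member of 15 gene lists (rows, with the number tested). Red points fell, blue points rose and grey points were not called; black bars mark list medians, from -1.06 for the acute phase to 0.41 for DNA replication, and the dotted line the median of all genes, 0.02.

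Bile acid synthesis turns cholesterol into detergents of bile. Of its 8 tested genes 4 fell, 4 were not called and none rose, and only called genes are named here. With transport, 7 of 12 tested genes fell, 58.3%, and none rose (median -0.43). Over all tested genes 20.2% fell, and at 100 CPM or more 39.1%. CYP27A1, the mitochondrial sterol 27-hydroxylase of the acidic route, counted 179, 199 and 205 CPM in HG and 73.0, 93.2 and 84.9 CPM in HGV (log2 fold change -1.22 ± 0.11 SE, adjusted p = 3.4e-06). CYP7A1, the rate-limiting enzyme of the classic route, and CYP8B1 fell by 1.71 and 1.92 at levels under 5 CPM in every library, and HSD3B7 by 1.55. The export pump ABCC2 counted 448, 386 and 392 CPM in HG and 248, 179 and 254 CPM in HGV (log2 fold change -0.85 ± 0.14 SE, adjusted p = 0.00028), and FGFR4, the receptor of the gut signal that restrains synthesis, fell by 0.57.

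Enzymes of amino acids and the urea cycle were called in both directions, 12 of 24 down, 50%, and 6 up, 25%, beside 20.2% and 25.8% over all tested genes. Without HGV1 7 were lower and 5 higher, and with library sizes alone 8 fell and 8 rose. GLUL, glutamine synthetase, counted 746, 714 and 778 CPM in HG and 352, 429 and 332 CPM in HGV (log2 fold change -1.01 ± 0.12 SE, adjusted p = 2e-05). AGXT, the peroxisomal enzyme that clears glyoxylate, counted 32.3, 39.2 and 39.6 CPM in HG and 10.2, 10.9 and 13.6 CPM in HGV (log2 fold change -1.68 ± 0.14 SE, adjusted p = 1.3e-06). ARG1, NAGS and TAT fell by 1.14, 1.14 and 1.11, and GLUD1 by 0.63. OAT rose from a mean of 51.0 ± 6.28 CPM in HG to 125 ± 12.0 in HGV (SD, n = 3) (log2 fold change 1.30 ± 0.12 SE, adjusted p = 2.9e-06), and the low-level genes PRODH, of proline breakdown, and BHMT, which remethylates homocysteine, rose by 4.17 and 3.85. Among drug-metabolising genes, 9 of 24 down and 5 up, CYP2W1, an orphan cytochrome P450 of tumour cells, counted 85.3, 90.6 and 82.1 CPM in HG and 12.0, 10.7 and 11.9 CPM in HGV (log2 fold change -2.90 ± 0.11 SE, adjusted p = 6.8e-09), and GSTA1, a glutathione transferase, fell by 2.43.

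Fat and sugar genes were called in both directions, as were all tested genes, of which 20.2% fell and 25.8% rose. In fatty acid synthesis 4 of 11 fell, 36.4%, and 3 rose, 27.3%. FASN, the synthase, counted 709, 841 and 767 CPM in HG and 513, 386 and 481 CPM in HGV (log2 fold change -0.75 ± 0.13 SE, adjusted p = 0.00038), and ACACA, the carboxylase before it, and its regulator SREBF1 fell by 0.79 and 0.78, while the elongase ELOVL5 rose from a mean of 133 ± 9.60 CPM in HG to 243 ± 8.69 in HGV (SD, n = 3) (log2 fold change 0.87 ± 0.10 SE, adjusted p = 1.6e-05). Of 20 genes of fatty acid oxidation 8 fell, 40.0%, and 2 rose, 10.0%. EHHADH of peroxisomes fell by 1.20, and CPT1A, which admits fatty acids to mitochondria, by 0.73. The lower count was 5 without HG3, HGV1 or HGV3, and the higher count was 1 without HG1 and 0 without HG2, HG3 or HGV2. Of 23 genes of cholesterol synthesis 3 fell and 4 rose, with 5 lower without HGV3 and 2 higher without HG2 or HGV3. Of 23 genes of glycolysis and gluconeogenesis 4 fell, 17.4%, and 6 rose, 26.1%, near the shares of all tested genes. Without HGV2 8 fell. The liver pyruvate kinase PKLR was lower by 0.96 and hexokinase HK1 higher by 3.86. The transporters SLC2A3 and SLC2A1 rose by 2.70 and 0.45, and SLC2A2, the transporter of liver and beta cells, counted 45.7, 35.4 and 37.9 CPM in HG and 24.8, 21.5 and 28.6 CPM in HGV (log2 fold change -0.67 ± 0.14 SE, adjusted p = 0.0017). MLXIPL, the glucose-responsive factor ChREBP, fell by 0.64.

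Among factors that feed and build the ribosome, the shares that fell stand beside 20.2% over all tested genes and 39.1% at 100 CPM or more, where falls outnumber rises in general. Of 38 initiation factors 19 fell, 50%, and none rose (median -0.34), and the 6 tested factors of elongation and termination had log2 fold changes from -0.35 to 0.21 and no call. EIF4G2, a scaffold of cap-independent initiation, counted 887, 751 and 793 CPM in HG and 369.9, 344 and 387 CPM in HGV (log2 fold change -1.14 ± 0.11 SE, adjusted p = 3.7e-06). EIF4B and EIF5 fell by 0.91 and 0.87, and EIF4EBP1, which holds back the cap-binding factor, by 1.03. Of 20 cytosolic aminoacyl-tRNA synthetases, which charge tRNAs, 11 fell, 55.0%, and 1 rose (median -0.37), among the falls GARS, which counted 472, 512 and 514 CPM in HG and 324, 327 and 279.7 CPM in HGV (log2 fold change -0.69 ± 0.10 SE, adjusted p = 0.00018), DARS, VARS and YARS. No rise was called on leaving out any library other than HGV1. Of 21 ribosome biogenesis genes 12 fell, 57.1%, and none rose (median -0.33), but without HG3 6 fell, without HG2 8, and with library sizes alone 7. UBTF, which loads RNA polymerase I on ribosomal DNA, counted 111, 115 and 123 CPM in HG and 29.0, 33.3 and 31.0 CPM in HGV (log2 fold change -1.90 ± 0.10 SE, adjusted p = 5.2e-08). NCL, nucleolin, counted 1688, 1334 and 1464 CPM in HG and 887, 736 and 947 CPM in HGV (log2 fold change -0.80 ± 0.13 SE, adjusted p = 0.00029), and DKC1, which modifies ribosomal RNA, fell by 0.91.

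Ribosomal protein genes gave 2 calls in 78, RPL10 and RPL6, both lower, lost without HG2, HG3, HGV1 or HGV3 (adjusted p up to 0.0894) for RPL10 and without HG1, HG3, HGV1 or HGV3 (adjusted p up to 0.121) for RPL6. The count moved with the library that stood apart: without HGV2 42 of the 78 were called lower, with a median of -0.30 against -0.16 with it, and without HG3, HGV1 or HGV3 none was. The median of -0.16 became -0.04 with library sizes alone, a move no larger than that of all genes. Of 16 genes of the integrated stress response, which ATF4 leads, 7 fell, 43.75%, and 2 rose, 12.5%, or 1 without HG1 or HG3. Over all tested genes 20.2% fell and 25.8% rose, and at 100 CPM or more 39.1% and 10.2%. SHMT2, the mitochondrial serine enzyme, counted 551, 619 and 661 CPM in HG and 263, 307 and 261 CPM in HGV (log2 fold change -1.14 ± 0.11 SE, adjusted p = 5.7e-06). TRIB3 and MTHFD2 fell by 1.04 and 0.61, and CHAC1 rose by 0.92 at a low level. Of 17 chaperones of the endoplasmic reticulum 2 fell, 11.8%, and 3 rose, 17.65%, both shares below those of all tested genes. Both falls were lost without HG1, HG3, HGV1 or HGV3. The 3 that rose were DNAJB11 (log2 fold change 0.81 ± 0.11 SE, adjusted p = 5.5e-05), SDF2L1 and SEL1L.

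Most genes that write and read histone acetylation fell. Histone acetyltransferases add the groups that deacetylases remove, and bromodomain proteins read them: of 14 tested genes 11 fell and 1 rose, with a median of -0.58. BRPF3 (GRCh37 6:36164521-36200567), a bromodomain scaffold of acetyltransferase complexes, counted 156, 165 and 155 CPM in HG and 28.5, 23.6 and 25.5 CPM in HGV. It had the lowest log2 fold change of all genes at 100 CPM or more with no overlap (log2 fold change -2.62 ± 0.11 SE, adjusted p = 1e-08). CREBBP, an acetyltransferase that many factors recruit, counted 179, 184 and 158 CPM in HG and 82.1, 58.2 and 67.8 CPM in HGV (log2 fold change -1.33 ± 0.13 SE, adjusted p = 5e-06). KAT6B and KAT5 fell by 1.97 and 1.17, with 38.6% of the exon bases of KAT5 under the opposite-strand gene RNASEH2C, and the reader BRD2 by 0.37. Of 10 tested histone deacetylases, some of which VPA inhibits, 3 fell and 3 rose, 30.0% each, near the 20.2% and 25.8% of all tested genes, and without HG3 the lower count was 1. HDAC1 counted 180.4, 165 and 185 CPM in HG and 259, 291 and 245 CPM in HGV and rose (log2 fold change 0.58 ± 0.10 SE, adjusted p = 0.00059), as did HDAC3 by 0.54, while HDAC7 fell by 0.66. HDAC5 and HDAC10 fell by 0.32 and 0.62, calls lost without HG2, HG3 or HGV1 (adjusted p up to 0.105) for the former and without HG3 (adjusted p 0.0707) for the latter, and 55.8% of the exon bases of HDAC10 also belong to MAPK12.

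**Figure D4:**
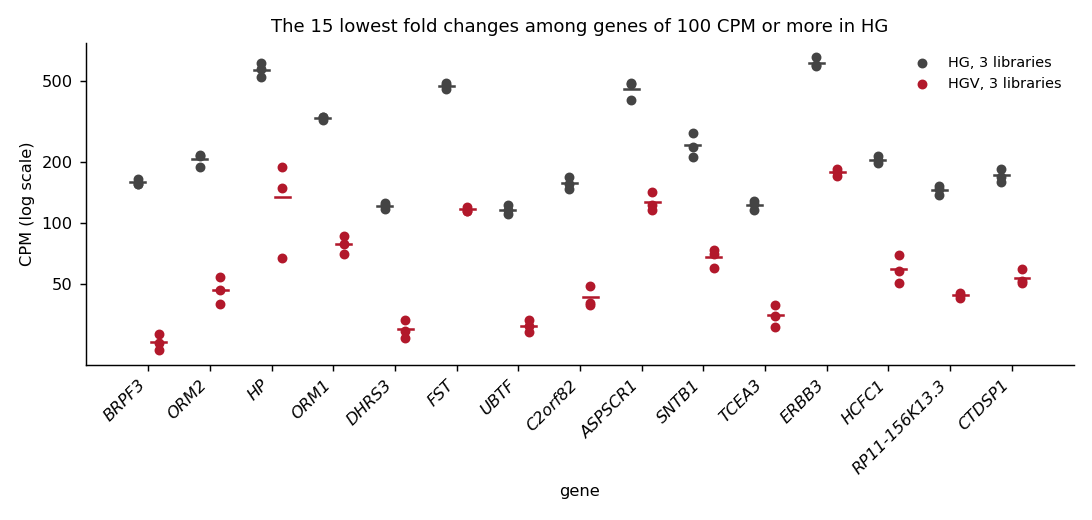
CPM on a log axis (vertical) in each HG library (grey) and HGV library (red), with a bar at the mean of 3, for the 15 genes of 100 CPM or more in HG with the lowest fold changes (horizontal). The groups are apart in all 15 genes, and the spread within HGV is widest for HP, from 66.9 to 188 CPM.

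The 15 lowest fold changes at 100 CPM or more ran from -2.62 for BRPF3 to -1.67 for CTDSP1, and they were picked for that and for groups that do not overlap. FST, follistatin, which binds activin, counted 489, 455 and 477 CPM in HG and 120.3, 115 and 115 CPM in HGV (log2 fold change -2.02 ± 0.10 SE, adjusted p = 2.9e-08). ERBB3, a receptor of the epidermal growth factor family, counted 596, 654 and 593 CPM in HG and 184, 169.8 and 178 CPM in HGV (log2 fold change -1.79 ± 0.10 SE, adjusted p = 6.5e-08). DHRS3, a retinal reductase, counted 122, 116 and 126 CPM in HG and 29.2, 33.3 and 27.1 CPM in HGV (log2 fold change -2.02 ± 0.11 SE, adjusted p = 5.2e-08). HCFC1, a chromatin cofactor, and TCEA3, an elongation factor, fell by 1.79 and 1.81. ASPSCR1, which tethers glucose transporter vesicles, SNTB1, of the dystrophin complex, CTDSP1, a phosphatase, C2orf82 and the noncoding RP11-156K13.3 fell by 1.86, 1.83, 1.67, 1.87 and 1.72. C2orf82 shares 4.9% of its exon bases with GIGYF2 on the same strand.

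At 10 CPM or more the falls went deeper. NUPR1, a small stress-induced nuclear protein, counted 26.8, 34.4 and 37 CPM in HG and 4.41, 4.02 and 3.95 CPM in HGV (log2 fold change -2.99 ± 0.15 SE, adjusted p = 3.5e-08). SLC6A9, the glycine transporter GLYT1, counted 86.2, 88.6 and 88.5 CPM in HG and 14.7, 10.6 and 9.82 CPM in HGV (log2 fold change -2.91 ± 0.15 SE, adjusted p = 3.5e-08). PUS10, a pseudouridine synthase, counted 55.0, 36.5 and 44 CPM in HG and 6.09, 6.48 and 7.33 CPM in HGV (log2 fold change -2.77 ± 0.16 SE, adjusted p = 8e-08). The other members, HEPACAM, SLC17A2, KCTD15, AVEN, FCGBP, LANCL2, ARMC5 and PMF1, lay between -2.69 and -2.28, and 24.1% of the exon bases of ARMC5 are under RP11-452L6.5 on the other strand.

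Well-expressed genes that rose did so by less. The highest at 100 CPM or more was SDC4, a heparan sulfate carrier of the cell surface, with 111, 129 and 128 CPM in HG and 272, 335 and 239.6 CPM in HGV (log2 fold change 1.20 ± 0.13 SE, adjusted p = 1.1e-05). STMN1, which takes microtubules apart, counted 115, 114 and 123 CPM in HG and 242, 306 and 254 CPM in HGV (log2 fold change 1.18 ± 0.11 SE, adjusted p = 3.5e-06). MDH1, the cytosolic malate dehydrogenase, counted 156, 145 and 159 CPM in HG and 294, 338 and 336 CPM in HGV (log2 fold change 1.07 ± 0.10 SE, adjusted p = 3.8e-06). ID1, a target of bone morphogenetic protein signals that blocks helix-loop-helix factors, counted 110.0, 132 and 138 CPM in HG and 252, 289 and 246 CPM in HGV (log2 fold change 1.05 ± 0.12 SE, adjusted p = 1.3e-05), and its relative ID3 rose by 1.36. EPB41L1, DSTN, ITM2C and GLO1 rose by 1.13, 0.91, 0.90 and 0.86. CCL20, a chemokine, rose from a mean of 57.6 ± 5.27 CPM in HG to 233 ± 79.0 in HGV (SD, n = 3) (log2 fold change 2.02 ± 0.19 SE, adjusted p = 4.2e-06).

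Cell cycle genes were called in both directions, as were all tested genes, of which 20.2% fell and 25.8% rose. Of 20 genes of G1 control 9 rose, a larger share than over all tested genes. The 4 that fell were a share near that of all tested genes. CCND3, cyclin D3, counted 6.92, 8.66 and 8.22 CPM in HG and 39.0, 44.8 and 33.8 CPM in HGV (log2 fold change 2.3 ± 0.14 SE, adjusted p = 1.3e-07), CCND2 rose by 2.29 and CCND1 by 0.37, the last a call lost without HG3 (adjusted p 0.0597). Of 6 tested inhibitors of cyclin-dependent kinases 3 rose and 3 were not called. CDKN2D counted 3.11, 3.43 and 3.44 CPM in HG and 16.8, 16.5 and 16.0 CPM in HGV (log2 fold change 2.3 ± 0.14 SE, adjusted p = 8.6e-08). CDKN2C rose by 0.79 and CDKN1A by 0.44, the call of CDKN1A being lost without HG1 (adjusted p 0.0721). MDM2, a ubiquitin ligase, fell by 0.66. MYC fell by 0.39, a call lost without HG3 (adjusted p 0.0508). Of 42 genes of DNA replication 21 rose and 2 fell (median 0.41): cyclin E1, CCNE1, counted 11.3, 14.7 and 15.4 CPM in HG and 36.9, 52.2 and 39.4 CPM in HGV (log2 fold change 1.63 ± 0.16 SE, adjusted p = 5e-06), and thymidine kinase TK1 rose by 1.29, but TYMS, thymidylate synthase, counted 47.0, 48.9 and 56.8 CPM in HG and 16.0, 22.5 and 16.4 CPM in HGV and fell (log2 fold change -1.47 ± 0.15 SE, adjusted p = 5.6e-06). The opposite-strand gene ENOSF1 covers 39.9% of the exon bases of TYMS. In mitosis 7 of 34 fell, 20.6%, near the 20.2% of all tested genes, and 3 rose, with PLK1 lower by 0.85. Without HG1 11 fell, and without HGV2 7 rose.

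The 5.5 mM cultures, which share no library with the comparison above, gave 3177 genes lower in LGV than in LG, 19.9% of 15944 tested, and 3461 higher, 21.7%. Of the 3251 genes that fell in high glucose and were tested at both levels, 2333 also fell in low glucose, 4 rose and 914 were not called. At 100 CPM or more in HG 616 of 763 lowered genes fell in low glucose too and none rose. Of the 198 raised genes at that level 80 rose and 1 fell in low glucose. All 52 lowered plasma protein genes had a log2 fold change below 0 in low glucose, and 44 were called lower there. C3 had -0.58 in high and -0.54 in low glucose, MASP2 -1.48 and -1.50, HP -2.08 and -2.74, and ORM1 -2.06 and -1.31.

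**Figure D5:**
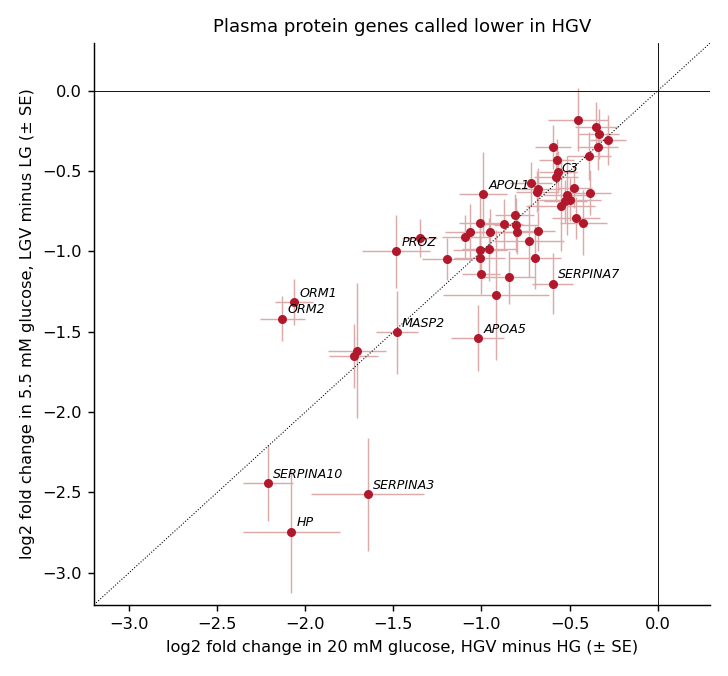
Log2 fold change under VPA in 20 mM glucose (horizontal, HGV minus HG) and in 5.5 mM glucose (vertical, LGV minus LG), each with its SE, for the 52 plasma protein genes called lower in HGV. All 52 points lie below 0 on both axes; the dotted line marks equal change.

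The difference between the changes at the 2 glucose levels, tested as an interaction in a fit of all 12 libraries, passed the threshold in 7 of 16389 genes, 0.0427%, and in none of the lowered genes of 100 CPM or more. Some raised genes had values on opposite sides of 0, without passing that test: ID1 had 1.05 in high and -0.58 in low glucose (interaction adjusted p = 0.098), TTR 0.51 and -0.22 (0.11), and HAMP 1.20 and -1.53 (0.13). Of the 7 genes, named here after their values were seen, RNF125, a ubiquitin ligase of antiviral signalling, counted 3.54, 6.83 and 5.47 CPM in HG and 2.54, 2.48 and 2.01 CPM in HGV and fell (log2 fold change -1.17 ± 0.24 SE, adjusted p = 0.0014), while it rose in low glucose (log2 fold change 1.66). WFS1, a membrane protein of the endoplasmic reticulum, counted 67.2, 80.7 and 76.4 CPM in HG and 108, 105 and 103 CPM in HGV and rose (log2 fold change 0.49 ± 0.10 SE, adjusted p = 0.0017), while it fell in low glucose (-0.50). CDK2AP2 followed the same course, with 0.65 and -0.41. ANKRD65, SH2D5 and C2orf81 moved further in high glucose, with -2.24, 2.21 and 3.17 against -1.17, 0.86 and 0.66. TTBK1 was not called in high glucose and rose in low glucose (2.24).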

How the data were processed

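RNA-seq counts of HepG2 cells were analysed, 3 libraries for each of HG, HGV, LG and LGV. The authors trimmed low-quality bases, aligned 50 nt single-end reads to GRCh37 with STAR and deposited whole-number counts per gene from featureCounts, made from poly(A) RNA with a directional kit. Genes averaging fewer than 10 counts over all libraries were left out by the authors. The strand setting of the counting is not given in the sources used here, nor is whether HG cells were harvested at the end of the 12 h.

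Genes that averaged 10 or more counts across HG and HGV were fitted with edgeR 4.0.16 (R 4.3.3; TMM scaling, glmQLFit and glmQLFTest, Benjamini-Hochberg over all tested genes, FDR of 0.05 or less). CPM used TMM-scaled library sizes. Totals were 29798442 to 40218012 counts per library, at which 3 counts correspond to 0.0736 to 0.0983 CPM. Interaction was fitted over all 12 libraries. The fit was run on simulated counts with far fewer changed genes than were called here. That run does not test the scaling or the FDR under so wide a change. Exon overlaps were read from GENCODE on GRCh37. Alternatives were other scalings, edgeR's likelihood ratio test, DESeq2 1.42.0, other filters, an FDR of 0.01, all 12 libraries in 1 fit, a replicate block and leaving out each library.

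The members and gene lists were chosen with earlier results of these data known. Named genes were the called members of the complement, coagulation, carrier, acute phase, apolipoprotein, transcription factor and G1 lists, and in other lists the 4 called members with the largest change and the 2 with the most counts. The 20 genes with the most counts in HG, extremes of fold change at 100 and 10 CPM, the 10 lower genes with the smallest p, C3 and MASP2 completed them. Other list members are given by value. Some genes that this rule names are not reported here.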

Additional observations from a re-analysis of the deposited data

Results flagged for a closer look

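For 7 genes the change under VPA differed between the glucose levels, by the interaction test in edgeR over all 12 libraries. The log2 difference, high minus low glucose, was -2.82 for RNF125 (adjusted p = 0.0012), -2.23 for TTBK1 (adjusted p = 0.038), -1.06 for ANKRD65 (adjusted p = 0.045), 1.01 for WFS1 (adjusted p = 0.037), 1.07 for CDK2AP2 (adjusted p = 0.037), 1.37 for SH2D5 (adjusted p = 0.037) and 2.52 for C2orf81 (adjusted p = 0.037). RNF125 fell in high and rose in low glucose, and CDK2AP2 and WFS1 rose in high and fell in low glucose. RNF125 and TTBK1 were scarce, at group means of at most 5.28 and 2.37 CPM.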

How the results depend on the processing

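Under every alternative run, the genes of 100 CPM or more in HG that fell (574 to 880) outnumbered those that rose (128 to 333). The count of rises at that level was 198 and moved to 333 with library sizes alone and to 128 at an FDR of 0.01. In low glucose the count of lower genes, 3177, became 1956 with library sizes alone. Leaving out 1 library at a time gave 2594 to 3432 lower and 3489 to 4361 higher genes, 6083 to 7793 in all, and 611 to 880 lower and 145 to 209 higher at 100 CPM or more. Same-numbered HG and HGV libraries deviated together at 0.244, 0.149 and -0.140 (correlations of deviations from group means). Libraries of unlike number ran from -0.364 to 0.285, so these few values cannot decide whether the labels' numbers pair the libraries. The replicate block gave 4551 higher and 3678 lower genes, 8229 in all against 7456 without it, and 211 and 808 at 100 CPM or more. In low glucose the replicate block gave 3630 higher and 3341 lower, 6971 in all.

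Of 300 named genes none changed sign past the threshold. Library sizes alone ended 27 calls, among them A2M, IGF2, AMBP, APOE, APOC2, C4BPA, FGB, KNG1, PLG, CPB2, CEBPA, FOXA3 and RXRA, and the replicate block ended 2, GADD45B and IGFBP1. Of 176 named lower genes 144 kept their call without each library in turn.

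Over the gene lists of the report, library sizes alone moved the count of falls from 12 to 7 in ribosome biogenesis, 8 to 5 in fatty acid oxidation and 2 to 0 in ribosomal proteins and in chaperones, and the count of rises from 2 to 4 in complement, 2 to 5 in fatty acid oxidation, 3 to 5 in chaperones and in mitosis, 0 to 4 in translation factors, 1 to 2 in synthetases and 0 to 1 in bile acid genes and in ribosome biogenesis. Library sizes alone also moved the falls from 16 to 11 in coagulation, 23 to 17 in hepatocyte transcription factors and 19 to 13 in translation factors. Rises went from 5 to 6 in coagulation and from 5 to 7 in the transcription factors. Other lists moved too and are not all given here. Upper-quartile scaling gave 7 falls and 1 rise in ribosome biogenesis, 0 falls in ribosomal proteins and in chaperones, and 5 rises in mitosis. DESeq2 gave 6 falls in ribosomal proteins, 5 in cholesterol synthesis and no rise in fatty acid oxidation or synthetases, and the replicate block 5 falls in ribosomal proteins, 5 in cholesterol synthesis and 5 rises in mitosis.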
